A study of Mus musculus with 48 samples.

Results

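The genes described here are 10 members of the heterogeneous nuclear ribonucleoprotein (hnRNP) family: *Hnrnpa1*, *Hnrnpa2b1*, *Hnrnpc*, *Hnrnpd*, *Hnrnpdl*, *Hnrnph1*, *Hnrnph3*, *Hnrnpk*, *Hnrnpl* and *Hnrnpu*. They were listed by gene name, but with earlier results of these data known, and are 10 of the 55335 genes in the deposited tables. Counts of members set beside shares of all genes are therefore descriptions. All 10 passed the filter on low values in each comparison, so each count of members below is out of 10.

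hnRNPs are abundant RNA-binding proteins, most of them nuclear, that coat nascent transcripts and act on splice site choice, export, stability and translation. Most bind RNA through RNA recognition motifs, related quasi-RNA recognition motifs or KH domains, while *Hnrnpu* binds it through a region rich in arginine and glycine. Several hnRNP genes hold exons whose use sends the transcript to nonsense-mediated decay (NMD), a route of RNA breakdown that needs translation, and the proteins can thereby limit their own levels.

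The cells were mouse embryonic stem (ES) cells, picked as edited clones from male parental lines of mixed 129 and C57BL/6 background with Cre-ERT2 at the *Rosa26* locus, and grown with serum, LIF and 2i inhibitors. RNA-seq of ribosomal RNA-depleted total RNA was made in 14 groups and Ribo-seq, which sequences the RNA fragments covered by ribosomes, in 2 groups, with 2 libraries in each group. The work addressed NRDE2 and CCDC174, which associate with splicing factors, and MTREX, the RNA helicase of the nuclear exosome.

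In *Nrde2*-KO cells, 4-hydroxytamoxifen (100 nM, 4 d) activated Cre to delete the floxed *Nrde2* gene, and in *Mtrex*-KO cells it was given for 3 d to delete floxed *Mtrex*. In RNA-seq the controls, *Nrde2*-WT and *Mtrex*-WT, were the same conditional lines without the compound. The Ribo-seq control is labelled only as wild-type, so whether it was that conditional line is not stated. In all these comparisons 4-hydroxytamoxifen and gene loss cannot be told apart. *Nrde2*Δ*200* cells make NRDE2 without its amino-terminal stretch, and *Nrde2-D174R* cells make NRDE2 with a point substitution that weakens its contact with MTREX. Both were untreated and were compared with the same *Nrde2*-WT libraries as *Nrde2*-KO. In *Ccdc174-dTAG* cells, dTAG-13 (500 nM, 24 h) led to degradation of CCDC174 fused to the FKBP12F36V degron, and the untreated fusion line was the control, *Ccdc174*-WT. The compound and loss of CCDC174 cannot be told apart either, and the study reports minor effects of the fusion itself on gene expression. A second *Nrde2*-KO experiment with *Nrde2*-WT libraries of its own, and the *Ccdc174* groups, were each sequenced without and with cycloheximide (CHX, 0.1 mg/ml, 4 h), which stops translation. Because the edited lines are clones, a genotype and the clone that carries it cannot be told apart where lines differ.

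The RNA-seq libraries held between 28683644 and 36272309 reads in genes and the Ribo-seq libraries between 3475051 and 5035940. Each replicate is called independent by the study, but nothing says that it came from a separate culture, and p-values measure only the spread between these libraries. Levels are given as CPM, read counts scaled to a fixed library total, after division by a median-of-ratios factor for each library, within the set of libraries fitted together. Fold changes are log2 values of a limma fit, and a gene was called higher or lower at a Benjamini-Hochberg adjusted p below 0.01 over all genes tested. Because the samples are bulk cultures, fewer cells with a transcript and less of it in each cell cannot be told apart.

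The targeted genes were checked first. *Nrde2* RNA stood at 39.97 and 38.6 CPM in *Nrde2*-WT and 18.2 and 19.4 CPM in *Nrde2*-KO (−1.05 ± 0.09, SE, adjusted p = 4.31e-07), and at 51.1 and 49.9 against 19.0 and 18.7 CPM in the second experiment (−1.41 ± 0.09, SE, adjusted p = 1.94e-08). *Mtrex* RNA stood at 114 and 107 CPM in *Mtrex*-WT and 43.4 and 39.5 CPM in *Mtrex*-KO (−1.41 ± 0.09, SE, adjusted p = 5.63e-10). In each of these 3 comparisons the knockout libraries lay below both controls. In Ribo-seq too, *Nrde2* was lower in both *Nrde2*-KO libraries (−2.16 ± 0.22, SE, adjusted p = 3.41e-07). With CHX, *Nrde2* RNA was at 271.4 and 249.9 CPM in *Nrde2*-WT and 282.9 and 271.3 CPM in the libraries labelled *Nrde2*-KO (0.09 ± 0.06, SE, adjusted p = 0.229). These values overlap, so *Nrde2* RNA does not check the label of the *Nrde2*-KO libraries with CHX. Two-cell-like markers, described below, summed to 54.0 and 47.1 CPM in those libraries against 4.34 and 4.52 CPM in *Nrde2*-WT with CHX. CCDC174 was removed as a protein, so *Ccdc174* RNA (0.37 ± 0.12, SE, adjusted p = 0.0497) checks nothing there.

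Scaled over all 28 RNA-seq libraries, ES cell markers (8 genes) summed to between 2725 and 5893 CPM, with a median of 4553 CPM. Markers of primitive endoderm (6 genes) summed to between 4.37 and 23.9 CPM, of trophectoderm (5 genes) to between 8.96 and 37.5 CPM, and of fibroblasts (5 genes) to between 1.86 and 4.32 CPM. The sums of a comparison, here and below, are scaled as the levels of the members in it. Markers of cells that resemble the embryo after its first division (two-cell-like, 6 genes, most abundant *Zscan4d*) summed to 2.45 and 1.76 CPM in *Nrde2*-WT, 26.3 and 16.9 CPM in *Nrde2*-KO and 10.3 and 13.4 CPM in *Nrde2*Δ*200*. They summed to 5.39 and 5.33 CPM in the second *Nrde2*-WT group against 82.5 and 74.5 CPM in its *Nrde2*-KO, and to 9.36 and 3.65 CPM in *Mtrex*-WT against 235 and 78.1 CPM in *Mtrex*-KO. They are low in each control group and higher in both libraries of each of these mutant groups, with a wide gap between the *Mtrex*-KO libraries. All 6 of 6 were called higher in *Nrde2*-KO, in the second experiment and in *Mtrex*-KO, 2 of 6 in *Nrde2*Δ*200* and 0 in *Nrde2-D174R* and *Ccdc174-dTAG*, and their part in the hnRNP results was not tested.

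Other markers moved in *Nrde2*-KO as well. The summed ES cell markers were 4959 and 5201 CPM in *Nrde2*-WT against 3843 and 4110.4 CPM in *Nrde2*-KO, with 2 of 8 called lower, *Tdgf1* lowest (−0.97). Of 4 primitive endoderm markers tested 1 was called higher, *Gata6* (1.76), of 4 trophectoderm markers 2, *Gata3* highest (1.35), and of 2 fibroblast markers 0. In the second experiment the ES cell markers summed to 5223 and 5178 CPM in *Nrde2*-WT against 4447 and 4602 CPM in *Nrde2*-KO, with 1 of 8 called lower, *Tfcp2l1* (−0.53). Called higher there were 1 of 4 primitive endoderm markers, *Gata6* (2.15), 2 of 4 trophectoderm markers, *Cdx2* highest (1.35), and 0 of 2 fibroblast markers. In *Ccdc174-dTAG* 1 of 8 ES cell markers was called higher, *Klf4* (0.57), and 1 lower, *Tfcp2l1* (−0.49), and 1 of 4 primitive endoderm markers higher, *Gata4* (0.66). *Nrde2*Δ*200* and *Nrde2-D174R* each had 1 of 4 trophectoderm markers called higher, *Gata3* (1.03 and 1.58), and 0 of 8 ES cell markers called. Their part in the results was not tested.

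The members lie on 9 chromosomes of GRCm38, 3 on the plus and 7 on the minus strand. *Hnrnpd* (ENSMUSG00000000568, chromosome 5 from 99955935 to 99978938) and *Hnrnpdl* (ENSMUSG00000029328, from 100033577 to 100039664) are neighbours on the minus strand, 54638 bases apart. *Hnrnpa1* (ENSMUSG00000046434) is on chromosome 15 from 103240432 to 103246692, *Hnrnpa2b1* (ENSMUSG00000004980) on chromosome 6 from 51460932 to 51469894, and *Hnrnpc* (ENSMUSG00000060373) on chromosome 14 from 52073377 to 52104028. *Hnrnph1* (ENSMUSG00000007850) is on chromosome 11 from 50376990 to 50386528 and *Hnrnph3* (ENSMUSG00000020069) on chromosome 10 from 63014664 to 63024217. *Hnrnpk* (ENSMUSG00000021546) is on chromosome 13 from 58391142 to 58403343, *Hnrnpl* (ENSMUSG00000015165) on chromosome 7 from 28808541 to 28822266, and *Hnrnpu* (ENSMUSG00000039630) on chromosome 1 from 178321108 to 178337797. GENCODE annotates NMD transcripts for 8 of the 10, with 4 for *Hnrnpd* and 3 each for *Hnrnpk* and *Hnrnpu*, and 0 for *Hnrnpc* and *Hnrnph1*. The tables count reads per gene, so these transcripts are not separated from the coding ones here.

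Only uniquely mapping reads were counted, and hnRNP genes have many processed pseudogenes. Of the 50-base stretches of the annotated transcripts, 28.2% for *Hnrnpa1*, 17.8% for *Hnrnpk*, 8.28% for *Hnrnpc*, 6.04% for *Hnrnpu* and 5.06% for *Hnrnpd* also occur, on either strand, in transcripts of other genes. For the other 5 members the share is at most 3.08%. Ribo-seq fragments were selected at a shorter length, so these shares do not hold for them. The share is highest for *Hnrnpa1* (914 stretches, found in 20 other genes), while *Hnrnpk* has more such stretches (1240, in 3 other genes) and those of *Hnrnpd* (385) occur in the most genes (576). Not all of these are copies elsewhere, since the gene that shares most with *Hnrnpu* is *Cox20* and with *Hnrnph3* *Rufy2*, each overlapping it on the other strand.

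In *Nrde2*-WT, the RNA-seq level per kilobase of exon, scaled over all 28 RNA-seq libraries, was highest for *Hnrnpa2b1* (115 ± 11.8 CPM per kilobase, SD, n = 2) and *Hnrnpc* (114 ± 1.47). These 2 overlapped, and *Hnrnpu* (104 ± 2.9), *Hnrnpk* (92.6 ± 6.59) and *Hnrnpl* (90.3 ± 0.212) followed, with *Hnrnpk* and *Hnrnpl* not separated. *Hnrnpdl* (47.2 ± 1.67) and *Hnrnph1* (43.0 ± 3.29) came next, well above *Hnrnpd* (17.0 ± 0.0643) and *Hnrnpa1* (17.0 ± 0.223), which overlapped, and *Hnrnph3* was lowest (10.2 ± 1.26). The order at the top differed in the second *Nrde2*-WT group without CHX. There *Hnrnpc* (146.8) lay above *Hnrnpa2b1* (134.6) in both libraries, and *Hnrnpl* ranked above *Hnrnpk*, not separated. In Ribo-seq, where reads come from coding sequence, the level per kilobase of coding length in *Nrde2*-WT was highest for *Hnrnpa2b1* (528 ± 23.9 CPM per kilobase) and *Hnrnpu* (477 ± 21.2), then *Hnrnpl* (339 ± 15.9) and *Hnrnpd* (244 ± 6.46). *Hnrnpc* (154 ± 1.98), *Hnrnph1* (104 ± 6.5), *Hnrnpdl* (76.3 ± 4.55) and *Hnrnpk* (74.7 ± 1.01) were lower, the last pair not separated, and *Hnrnpa1* (28.1 ± 1.95) and *Hnrnph3* (18.7 ± 0.748) were again at the bottom. *Hnrnpk* was thus rank 4 of 10 per coding kilobase in RNA-seq (410.1 ± 29.2) and rank 8 in Ribo-seq, while *Hnrnpd* was rank 8 in RNA-seq (118 ± 0.444) and rank 4 in Ribo-seq. The differences of rank, and the part in them of stretches shared with other genes, were not tested.

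Across the 14 RNA-seq groups, scaled over all 28 libraries, the ratio of the highest to the lowest group mean was between 1.62 for *Hnrnpk* and 2.95 for *Hnrnph1*. *Hnrnph1*, a splicing regulator that binds runs of guanine, was lowest in *Mtrex*-WT (195 ± 27.6 CPM, SD) and highest in the second *Nrde2*-KO group without CHX (576 ± 41.7). *Hnrnpd*, which binds AU-rich elements and acts on mRNA turnover, was lowest in *Nrde2*-KO (107 ± 12.6) and highest in *Mtrex*-KO (235 ± 50.6). *Hnrnpl*, which binds CA-rich RNA, was lowest in *Mtrex*-KO (328 ± 23.2) and highest in the second *Nrde2*-WT group without CHX (574 ± 47.4). *Hnrnpu*, also called scaffold attachment factor A, was lowest in *Ccdc174-dTAG* with CHX (875 ± 59.8) and highest in *Mtrex*-KO (1748 ± 5.19). Not all of these extremes stand apart. *Hnrnpu* in *Ccdc174*-WT with CHX (882 ± 129) overlapped its lowest group, and *Hnrnpl* in *Nrde2-D174R* (569 ± 2.97) its highest. Control groups of different experiments also differ, for example *Hnrnph1* at 238 and 265 CPM in the first *Nrde2*-WT pair and 419 and 420.4 CPM in the second, so each mutant is compared only with its own control.

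The first question was what loss of NRDE2 did to these genes. In *Nrde2*-KO, 1 of 10 members rose, against 7.21% of 14889 genes, and 1 fell, against 11.1%. *Hnrnpc*, a nuclear protein that binds uridine tracts of nascent RNA, was at 474 and 478 CPM in *Nrde2*-WT and 359.9 and 349 CPM in *Nrde2*-KO. Both knockout libraries lie below both controls, and *Hnrnpc* fell by 0.42 on the log2 scale (SE 0.11, adjusted p = 0.00588). *Hnrnph1* was at 229.7 and 254 CPM in *Nrde2*-WT and 377 and 366 CPM in *Nrde2*-KO. Both knockout libraries lie above both controls, and *Hnrnph1* rose (0.62 ± 0.10, SE, adjusted p = 0.000233).

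The other 8 members were between −0.38 and 0.16 and did not pass the test, with 6 of them below 0. *Hnrnpl*, at 520.2 and 514 against 405 and 401 CPM (−0.36, adjusted p = 0.0133), and *Hnrnpk*, a KH domain protein that binds cytosine-rich RNA, at 549.6 and 602 against 439 and 469.7 CPM (−0.34, adjusted p = 0.0414), came nearest to it. For both, the knockout libraries lie below the controls without overlap. The median of the 10 members was −0.28, that of all genes tested −0.01. The *Hnrnpc* call was lost without any 1 of the 4 libraries (−0.45 to −0.40, adjusted p between 0.0317 and 0.0448), with no filter on low values (−0.42) and with CPM as deposited (−0.35). The *Hnrnph1* call passed under each alternative run. Calls gained were *Hnrnpl* by DESeq2 (adjusted p = 0.00633), and *Hnrnpl* and *Hnrnpk* with only the groups compared (0.000715 and 0.00246). *Hnrnpl* was gained as well in the blocked fit, described in the last section.

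In the second *Nrde2*-KO experiment 1 of 10 members rose, against 7.1% of genes, and 1 fell, against 11.4%. *Hnrnph1* was at 402 and 404 CPM in *Nrde2*-WT and 523 and 577 CPM in *Nrde2*-KO, higher in both knockout libraries (0.45 ± 0.10, SE, adjusted p = 0.00318). *Hnrnpl* was at 518 and 584 CPM in *Nrde2*-WT and 405 and 419 CPM in *Nrde2*-KO, lower in both (−0.42 ± 0.10, SE, adjusted p = 0.00518). *Hnrnpa1*, a shuttling A/B type protein that represses exon use, was at 47.4 and 59.0 against 62.5 and 85.0 CPM without overlap, and missed the threshold in limma (0.46, adjusted p = 0.0161) but not in DESeq2 (adjusted p = 0.0057). *Hnrnpc* was at 609 and 609 against 539 and 577 CPM (−0.13, adjusted p = 0.394). The other 6 members were between −0.25 and 0.05, and the median of the 10 was −0.11. Both calls were lost with no filter and without *Nrde2*-WT replicate 2 or *Nrde2*-KO replicate 2, that of *Hnrnph1* also without *Nrde2*-WT replicate 1, and that of *Hnrnpl* also without *Nrde2*-KO replicate 1 and with CPM as deposited. Leaving out 1 library gave adjusted p between 0.00714 and 0.0452 for *Hnrnph1* and between 0.0085 and 0.0761 for *Hnrnpl*.

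The experiments share no library, and the difference between them was tested in the same fit. limma called 0 of 10 members, and over all genes 0% higher and 0% lower, with 0 members and 905 genes at an unadjusted p below 0.05. By DESeq2 3 genes passed, none of them a member, and by edgeR 0. The difference between the experiments (first minus second) was 0.17 ± 0.15 for *Hnrnph1*, −0.30 ± 0.15 for *Hnrnpc*, 0.06 ± 0.15 for *Hnrnpl* and −0.31 ± 0.19 for *Hnrnpa1*.

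Among 19 other hnRNP genes, 1 was called higher and 5 lower in *Nrde2*-KO, against 7.21% and 11.1% of all genes. *Ptbp2*, the neuronal relative of *Ptbp1*, was highest (1.00 ± 0.10, SE, adjusted p = 1.68e-06), and *Raly*, a relative of *Hnrnpc*, lowest (−0.67 ± 0.10, SE, adjusted p = 0.000103). In the second experiment 1 was called higher, *Ptbp2* (0.88, adjusted p = 5.55e-06), and 2 lower, *Raly* lowest (−0.64, adjusted p = 0.000135). The shares of all genes there were 7.1% higher and 11.4% lower. The medians of the 19 were −0.23 and −0.19.

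**Figure D1:**
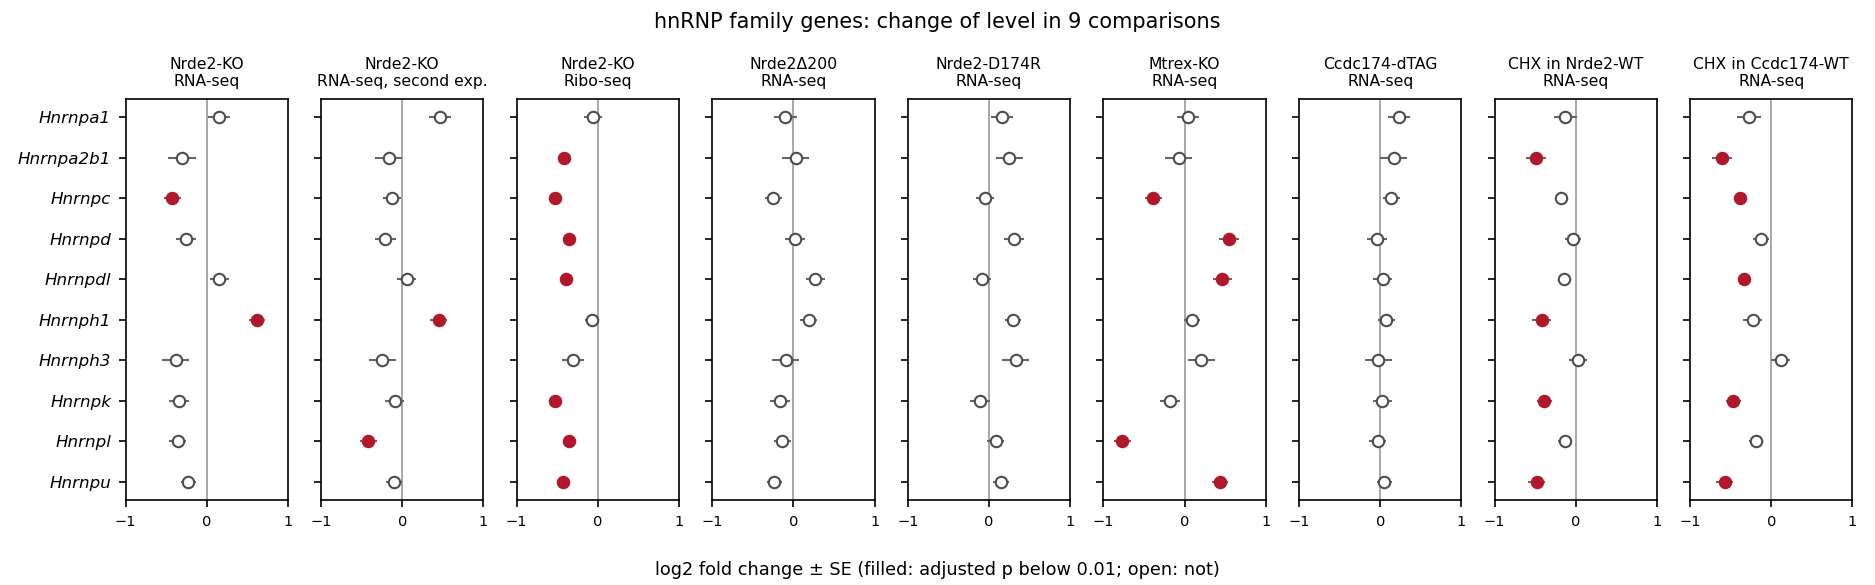
Log2 fold change (horizontal axis, −1 to 1) of each of the 10 members in 9 comparisons, one panel each, with bars for the SE and filled circles for adjusted p below 0.01. *Hnrnph1* lies to the right in both *Nrde2*-KO RNA-seq panels (0.62 and 0.45), and 7 members are filled to the left in *Nrde2*-KO Ribo-seq, where no member is called with CPM as deposited.

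*Nrde2*Δ*200* and *Nrde2-D174R* were compared with the *Nrde2*-WT libraries that also served *Nrde2*-KO, so the values of the 3 comparisons are given side by side without a count of shared directions. In *Nrde2*Δ*200* limma called 0 of 10 members, against 3.18% of genes higher and 4.19% lower, with 3 members at an unadjusted p below 0.05, and edgeR and DESeq2 each called 0 members. In *Nrde2-D174R* limma also called 0 of 10, against 0.275% higher and 0.134% lower, with 2 members at an unadjusted p below 0.05 and 0 called by edgeR and by DESeq2. *Hnrnph1* was at 287 and 263 CPM in *Nrde2*Δ*200* (0.19 ± 0.10) and 305 and 288 CPM in *Nrde2-D174R* (0.29 ± 0.10). These 4 libraries lie above both *Nrde2*-WT libraries and below both *Nrde2*-KO libraries. *Hnrnpc* was at 422 and 379 CPM in *Nrde2*Δ*200* (−0.25 ± 0.11) and 471 and 448 CPM in *Nrde2-D174R* (−0.05 ± 0.11), all 4 below *Nrde2*-WT and above *Nrde2*-KO. These 2 members are shown because they were called in *Nrde2*-KO, and the order did not hold for every member. For example, *Hnrnpd*, *Hnrnph3* and *Hnrnpl* were above 0 in *Nrde2-D174R* and below 0 in *Nrde2*-KO. The 10 members spanned −0.25 to 0.27 in *Nrde2*Δ*200* (median −0.10) and −0.11 to 0.33 in *Nrde2-D174R* (median 0.16). Of the 19 other hnRNP genes, limma called 0 in *Nrde2*Δ*200* and 0 in *Nrde2-D174R*, with medians of −0.11 and 0.11.

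For loss of MTREX the counts of members are near the shares of all genes. In *Mtrex*-KO 3 of 10 members rose, against 27.7% of genes, and 2 fell, against 28.2%. *Hnrnpc* was at 429 and 463 CPM in *Mtrex*-WT and 296 and 395 CPM in *Mtrex*-KO, lower in both (−0.38 ± 0.11, SE, adjusted p = 0.00415). *Hnrnpd* was at 153 and 148 CPM against 255 and 191 CPM (0.55 ± 0.12, SE, adjusted p = 0.000862), and its paralog *Hnrnpdl* at 234 and 253 CPM against 286 and 395 CPM (0.47 ± 0.11, SE, adjusted p = 0.00143). Both rose in both knockout libraries, but *Hnrnpd* is higher in replicate 1 and *Hnrnpdl* in replicate 2. *Hnrnpl* was at 577 and 486 CPM against 324 and 299 CPM (−0.77 ± 0.10, SE, adjusted p = 3.83e-06), and *Hnrnpu* at 1202 and 1249 CPM against 1646 and 1669 CPM (0.44 ± 0.09, SE, adjusted p = 0.000586). The groups do not overlap for either gene, with *Hnrnpl* low and *Hnrnpu* high in both knockout libraries.

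The other 5 members of the 10, *Hnrnpa1*, *Hnrnpa2b1*, *Hnrnph1*, *Hnrnph3* and *Hnrnpk*, were between −0.18 and 0.20 in *Mtrex*-KO and did not pass the test. With CPM as deposited the median of all genes was −0.38, and the 3 members that rose were at 0.17 (*Hnrnpd*), 0.09 (*Hnrnpdl*) and 0.06 (*Hnrnpu*), above that median and not called, while *Hnrnpl* (−1.14), *Hnrnpc* (−0.76) and *Hnrnpk* (−0.55, adjusted p = 0.0041) were called lower, the last of them not called with scaling. *Hnrnpa1*, *Hnrnph1* and *Hnrnph3*, above 0 in the scaled values, were at −0.33, −0.28 and −0.17. Fitted with only the *Mtrex* libraries, *Hnrnpl* alone of the 10 was called.

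Calls in *Mtrex*-KO also rested on single libraries. *Hnrnpc* was not called without *Mtrex*-WT replicate 2 (−0.33, adjusted p = 0.0421) or *Mtrex*-KO replicate 1 (−0.17, adjusted p = 0.119), nor with no filter (adjusted p = 0.0109), and was at −0.58 without *Mtrex*-KO replicate 2. *Hnrnpd* was not called without *Mtrex*-KO replicate 1 (0.35, adjusted p = 0.0197) and was at 0.76 without replicate 2. *Hnrnpdl* was not called without *Mtrex*-WT replicate 1 (0.41, adjusted p = 0.0195) or *Mtrex*-KO replicate 2 (0.24, adjusted p = 0.0293), and was at 0.71 without *Mtrex*-KO replicate 1. The *Mtrex*-KO libraries differed most of all RNA-seq pairs, with a chi-square per gene between replicates of 98.4 against 5.80 to 42.9 in the other 13 groups. Gm26917, a transcript with ribosomal RNA sequence, took 119884 and 73537 CPM as deposited in *Mtrex*-KO and 28586 and 28238 in *Mtrex*-WT, and its part in the result was not tested. The summed ES cell markers were 4042 and 4870.0 CPM in *Mtrex*-KO against 5538 and 5663 CPM in *Mtrex*-WT, with 4 of 8 called lower, *Nanog* lowest (−1.05). Of 4 trophectoderm markers tested 3 were called higher, *Krt7* highest (3.20), and of 4 primitive endoderm markers 2, *Gata6* highest (2.97). Of 2 fibroblast markers *Col1a1* was called higher (1.06) and *Thy1* lower (−1.45). The part of these markers was not tested either. Of the 19 other hnRNP genes, 7 were called higher, highest *Rbmx*, the X-linked hnRNP G gene (2.77 ± 0.14, SE, adjusted p = 2.46e-11), and 5 lower, lowest *Raly* (−0.63 ± 0.10, SE, adjusted p = 2.92e-05). The shares of all genes were 27.7% and 28.2%.

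Depletion of CCDC174 for 24 h gave smaller values. limma called 0 of 10 members, against 1.04% of genes higher and 4.53% lower, with 0 members at an unadjusted p below 0.05, and edgeR and DESeq2 each called 0. The members were between −0.04 and 0.23, with a median of 0.04 against 0.02 for all genes. *Hnrnpa2b1*, an A/B type protein that acts in RNA transport and splicing, was at 962 and 901 CPM in *Ccdc174*-WT and 891 and 1223 CPM in *Ccdc174-dTAG* (0.17 ± 0.17, SE, adjusted p = 0.594). Its depleted libraries lie on both sides of the controls. *Hnrnph1* was at 439 and 367 against 432 and 415 CPM (0.08 ± 0.10, SE, adjusted p = 0.713), also with overlap. Of the 19 other hnRNP genes 1 was called, *Raly* (−0.48 ± 0.10, SE, adjusted p = 0.00434). That call was lost without 3 of the 4 libraries, all but *Ccdc174-dTAG* replicate 1 (−0.60 to −0.35 over the 4, adjusted p at most 0.0914), with no filter, with CPM as deposited and with only the groups compared.

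CHX was given to keep RNAs that are degraded when translated, and a list of 7 such RNAs shows its effect. In *Nrde2*-WT 5 of the 7 were called higher with CHX, *Snhg1*, a host of small nucleolar RNAs, most (1.81 ± 0.09, SE, adjusted p = 1.05e-09). In *Ccdc174*-WT 5 were also called higher, *Snhg1* most (1.58 ± 0.09, SE, adjusted p = 3.51e-09), and *Gas5* was called lower (−0.38 ± 0.09, SE, adjusted p = 0.00222). The *Gas5* call was lost without 3 of the 4 libraries, all but the CHX library of replicate 1 (−0.49 to −0.27 over the 4, adjusted p at most 0.0445), with no filter and with CPM as deposited (−0.14). The hnRNP members that passed the test moved the other way. In *Nrde2*-WT 4 of 10 members fell with CHX, against 22.9% of 15133 genes, and 0 rose, against 24.8%. In *Ccdc174*-WT 5 of 10 fell, against 24.6%, and 0 rose, against 25%.

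*Hnrnpa2b1* was at 989 and 838 CPM without and 644 and 652 CPM with CHX in *Nrde2*-WT (−0.49 ± 0.12, SE, adjusted p = 0.00287), and at 1019.5 and 955 against 678 and 622 CPM in *Ccdc174*-WT (−0.60 ± 0.12, SE, adjusted p = 0.000541). The 4 libraries with CHX are the low ones, with no overlap. *Hnrnpk* was at 592 and 649 against 471 and 477 CPM in *Nrde2*-WT (−0.39 ± 0.09, SE, adjusted p = 0.00226) and 596 and 543 against 428 and 396 CPM in *Ccdc174*-WT (−0.47 ± 0.09, SE, adjusted p = 0.000495). *Hnrnpu* was at 1528 and 1672 against 1074 and 1218 CPM in *Nrde2*-WT (−0.48 ± 0.10, SE, adjusted p = 0.000951) and 1415 and 1256 against 992 and 806 CPM in *Ccdc174*-WT (−0.58 ± 0.10, SE, adjusted p = 0.000199). For both genes too, each library with CHX lies below each control library of the same line.

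*Hnrnph1* was called in *Nrde2*-WT only, at 432 and 433 CPM without and 301 and 348 CPM with CHX (−0.42 ± 0.11, SE, adjusted p = 0.00553). In *Ccdc174*-WT it was at 466 and 389 against 412 and 319 CPM, with overlap (−0.23, adjusted p = 0.0931). *Hnrnpc* and *Hnrnpdl* were called in *Ccdc174*-WT only: *Hnrnpc* at 469 and 460.3 against 368 and 344 CPM (−0.39 ± 0.06, SE, adjusted p = 0.000105) and *Hnrnpdl* at 361 and 371 against 301 and 281 CPM (−0.33 ± 0.07, SE, adjusted p = 0.000932). In *Nrde2*-WT these were −0.19 (adjusted p = 0.0217) and −0.15 (adjusted p = 0.0888), both without overlap and below the controls, with *Hnrnpc* called by DESeq2 (adjusted p = 0.00821). The difference of the CHX effect between the control lines was not tested. *Hnrnpa1*, *Hnrnpd*, *Hnrnph3* and *Hnrnpl* passed the test in neither line, with values from −0.27 to 0.11. *Hnrnph3* was the member above 0 in both (0.03 and 0.11). The median of the 10 members was −0.17 in *Nrde2*-WT and −0.30 in *Ccdc174*-WT, against 0.00 and −0.02 for all genes.

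With CPM as deposited, CHX moved the median of all genes to 0.20 in *Nrde2*-WT and 0.21 in *Ccdc174*-WT, and 0 and 1 members were called, the 1 being *Hnrnpu* in *Ccdc174*-WT (−0.33). *Hnrnpa2b1* (−0.27 and −0.36) and *Hnrnpk* (−0.17 and −0.22) were then also below 0 in both lines, while *Hnrnpc* was at 0.03 and −0.14. Besides *Hnrnph3*, the values of *Hnrnpa1*, *Hnrnpc*, *Hnrnpd*, *Hnrnpdl* and *Hnrnpl* turned above 0 in *Nrde2*-WT under that scaling, and those of *Hnrnpd*, *Hnrnph1* and *Hnrnpl* in *Ccdc174*-WT. With no filter the calls of *Hnrnpa2b1*, *Hnrnph1* and *Hnrnpk* in *Nrde2*-WT were lost. In *Nrde2*-WT the count of members called was 2 without *Nrde2*-WT replicate 1, 1 without replicate 2, 0 without the CHX library of replicate 1 and 2 without that of replicate 2. In *Ccdc174*-WT it was between 4 and 6, with *Hnrnpdl* not called without the CHX library of replicate 2 (adjusted p = 0.0149). The summed ES cell markers were 5623 and 5551 CPM without and 3649 and 3697 CPM with CHX in *Nrde2*-WT, and 4512 and 4783 against 2887 and 2950.2 CPM in *Ccdc174*-WT. Of these 8 genes 4 and 6 were called lower, *Tfcp2l1* lowest (−1.34 and −1.42), and 1 in each line higher, *Sox2* (0.40 and 0.38). Of 3 trophectoderm markers tested *Gata3* was called higher (1.56 and 1.01) and *Eomes* lower (−1.21 and −0.91). Of 3 fibroblast markers 1 was called higher, *Col3a1* (2.05 and 2.51), and of 4 primitive endoderm markers 1 in *Nrde2*-WT, *Sox17* (1.28), and 2 in *Ccdc174*-WT, *Pdgfra* highest (1.40). The part of these markers was not tested.

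The 19 other hnRNP genes were counted in the same way. In *Nrde2*-WT 11 were called lower with CHX, *Hnrnpa3* lowest (−0.68 ± 0.13, SE, adjusted p = 0.000363), and 2 higher, *Ptbp2* highest (1.15 ± 0.10, SE, adjusted p = 1.32e-07). In *Ccdc174*-WT 12 were called lower, *Syncrip*, the hnRNP Q gene, lowest (−0.88 ± 0.10, SE, adjusted p = 2.59e-06), and 2 higher, *Ptbp2* highest (1.10 ± 0.10, SE, adjusted p = 1.70e-07). Their medians were −0.43 and −0.51. The shares of all genes were 24.8% higher and 22.9% lower in *Nrde2*-WT, and 25% and 24.6% in *Ccdc174*-WT.

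**Figure D2:**
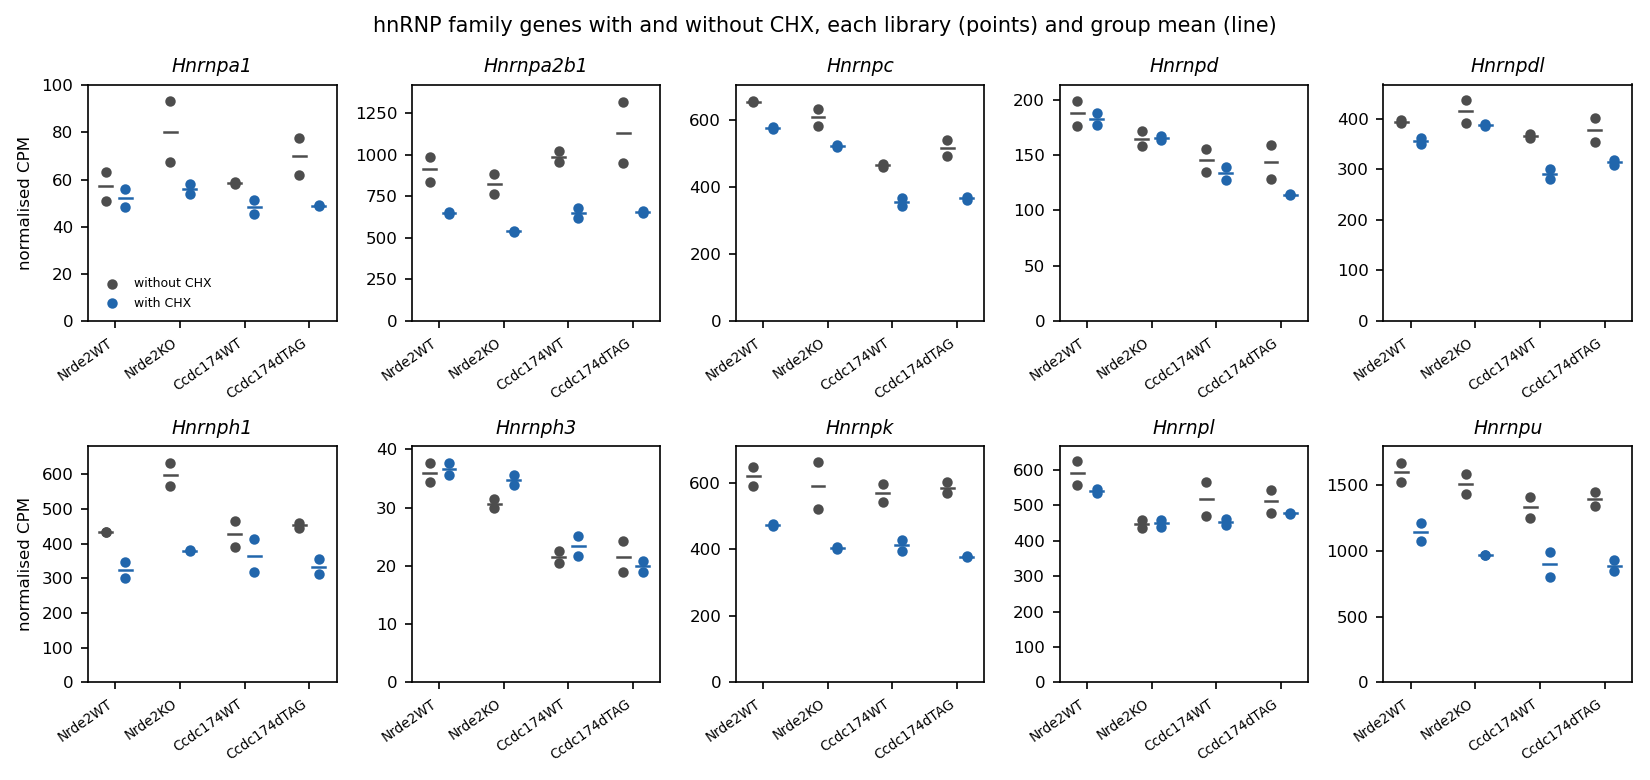
Normalised CPM (vertical axis, from 0) of each member in each library of the CHX experiments, without CHX (grey) and with CHX (blue), in *Nrde2*-WT, *Nrde2*-KO, *Ccdc174*-WT and *Ccdc174-dTAG*, with lines for the means of 2 libraries. For *Hnrnpa2b1*, *Hnrnpk* and *Hnrnpu* the libraries with CHX lie below those without CHX in all 4 groups.

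The effect of CHX was also set against the genotype. In the libraries labelled *Nrde2*-KO the CHX effect was −0.61 ± 0.12 for *Hnrnpa2b1*, −0.65 ± 0.11 for *Hnrnph1*, −0.54 ± 0.09 for *Hnrnpk* and −0.64 ± 0.10 for *Hnrnpu*. In *Ccdc174-dTAG* it was −0.77 ± 0.12 for *Hnrnpa2b1*, −0.44 ± 0.11 for *Hnrnph1*, −0.63 ± 0.09 for *Hnrnpk* and −0.65 ± 0.10 for *Hnrnpu*. The difference between genotypes was tested as an interaction. limma called 0 of 10 members for *Nrde2*-KO, against 0.344% of genes higher and 0.112% lower, and 0 for *Ccdc174-dTAG*, against 0.205% and 0.0396%. In each interaction 0 members had an unadjusted p below 0.05, and edgeR and DESeq2 called 0. The lowest values were those of *Hnrnpa1*, at −0.37 ± 0.20 and −0.23 ± 0.20. An interaction that misses the threshold does not show that the effects were equal.

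Within the libraries with CHX, 0 of 10 members rose in those labelled *Nrde2*-KO, against 10.8% of 15476 genes, and 3 fell, against 17.4%. *Hnrnpa2b1* was at 702 and 711 CPM in *Nrde2*-WT and 587 and 576 CPM in *Nrde2*-KO (−0.28 ± 0.05, SE, adjusted p = 0.00109). *Hnrnpk* was at 514 and 520.2 against 433 and 439 CPM (−0.25 ± 0.05, SE, adjusted p = 0.00173), and *Hnrnpl* at 582 and 596 against 475 and 495 CPM (−0.28 ± 0.04, SE, adjusted p = 0.000569). For all 3 both libraries labelled *Nrde2*-KO lie below both controls. *Hnrnph1* was at 328 and 379.8 against 409 and 411 CPM, higher in both libraries so labelled but not past the test (0.22, adjusted p = 0.124). Without *Nrde2*-KO replicate 1 none of the 3 was called (adjusted p at most 0.0216), and without its replicate 2 *Hnrnpl* remained. Of the 19 other hnRNP genes 8 were called lower, *Raly* lowest (−0.52 ± 0.05, SE, adjusted p = 1.24e-05). Two-cell-like markers summed to 54.0 and 47.1 CPM in *Nrde2*-KO against 4.34 and 4.52 CPM in *Nrde2*-WT with CHX, with 5 of 5 tested called higher. ES cell markers summed to 3482 and 3388 against 3978 and 4030.0 CPM, with 3 of 8 called lower, *Tdgf1* lowest (−1.04), and 1 higher, *Klf4* (0.32). Of 5 primitive endoderm markers 2 were called higher, *Gata6* highest (1.82), and 1 lower, *Foxa2* (−1.38). Of 3 trophectoderm markers 2 were called higher, *Cdx2* highest (1.26), and 1 lower, *Eomes* (−0.54), and of 3 fibroblast markers 0 were called. The part of these markers was not tested.

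In *Ccdc174-dTAG* with CHX limma called 0 of 10 members, against 2.86% of genes higher and 6.17% lower, with 3 members at an unadjusted p below 0.05. edgeR called 0 and DESeq2 1, *Hnrnpd*. It was at 152 and 140.3 CPM in *Ccdc174*-WT and 123 and 125 CPM in *Ccdc174-dTAG*, lower in both depleted libraries and just short of the threshold (−0.23, adjusted p = 0.0114). The 10 members spanned −0.23 to 0.10, with a median of 0.00. Of the 19 other hnRNP genes 1 was called higher, *Pcbp2*, which like *Hnrnpk* binds cytosine-rich RNA through KH domains (0.32 ± 0.07, SE, adjusted p = 0.00922), and 2 lower, *Raly* lowest (−0.40 ± 0.05, SE, adjusted p = 0.000292). The *Pcbp2* call was lost without any 1 of the 4 libraries (0.28 to 0.37, adjusted p between 0.0228 and 0.0775) and with no filter. Of 8 ES cell markers 1 was called higher, *Klf4* (0.62), and 2 lower, *Tdgf1* lowest (−0.72), and their part was not tested.

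Ribo-seq measured the ribosome-covered fragments of these genes with and without NRDE2. In *Nrde2*-KO 7 of 10 members fell, against 14.2% of 13857 genes, and 0 rose, against 11%. All 10 were below 0, with a median of −0.37 against 0.00 for all genes. *Hnrnpa2b1* was at 541 and 577 CPM in *Nrde2*-WT and 432 and 405 CPM in *Nrde2*-KO (−0.42 ± 0.08, SE, adjusted p = 0.000217). *Hnrnpc* was at 146 and 143 against 96.2 and 104 CPM (−0.52 ± 0.08, SE, adjusted p = 2.99e-05). In both genes the knockout libraries are the low ones, apart from the controls by more than either pair of replicates. *Hnrnpd* was at 255 and 265 against 196 and 209 CPM (−0.36 ± 0.07, SE, adjusted p = 0.000777), and *Hnrnpdl* at 110.1 and 101 against 80.1 and 81.1 CPM (−0.39 ± 0.08, SE, adjusted p = 0.00094). These paralogs were lower in both knockout libraries as well.

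*Hnrnpk* was at 108 and 110.1 CPM in *Nrde2*-WT and 73.6 and 78.0 CPM in *Nrde2*-KO (−0.52 ± 0.08, SE, adjusted p = 4.09e-05). *Hnrnpl* was at 630.1 and 673 against 517 and 503 CPM (−0.35 ± 0.08, SE, adjusted p = 0.000979), and *Hnrnpu* at 1158 and 1233 against 933 and 849 CPM (−0.42 ± 0.08, SE, adjusted p = 0.000378). For these 3 too no knockout library reaches a control library. The 3 members that did not pass were *Hnrnpa1* (−0.06, adjusted p = 0.71), *Hnrnph1* (−0.08, adjusted p = 0.472) and *Hnrnph3*, a relative of *Hnrnph1* (−0.30, adjusted p = 0.0918). *Hnrnpa1* and *Hnrnph1* overlap between the groups, and *Hnrnph3*, at 18.8 and 19.9 against 17.2 and 14.3 CPM, does not.

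With Ribo-seq CPM as deposited the median of all genes was 0.15 and 0 of 10 members were called by limma, with 8 of 10 still below 0 and *Hnrnpa1* (0.09) and *Hnrnph1* (0.07) above. The lowest were then *Hnrnpc* and *Hnrnpk* (−0.37 each). edgeR and DESeq2, with scaling of their own, each called 7 members, and with no filter limma called 4. *Hnrnpd* and *Hnrnpdl* were not called without *Nrde2*-KO replicate 1 (adjusted p = 0.0204 and 0.0124), nor *Hnrnpu* without *Nrde2*-KO replicate 2 (0.0115). Gm42418, a transcript with ribosomal RNA sequence, took between 71953 and 84500.1 CPM as deposited in the Ribo-seq libraries. The summed ES cell markers were 2754 and 2737 CPM in *Nrde2*-WT against 2228 and 2167 CPM in *Nrde2*-KO, with 2 of 8 called lower, *Tfcp2l1* lowest (−0.88), and 1 higher, *Klf4* (0.45). Called higher in Ribo-seq were also 2 of 3 primitive endoderm markers, *Gata6* highest (1.77), 1 of 3 trophectoderm markers, *Gata3* (1.12), and 1 of 2 fibroblast markers, *Col1a1* (2.46). Their part in the Ribo-seq result was not tested. Of the 19 other hnRNP genes 13 were called lower, *Syncrip* lowest (−0.74 ± 0.09, SE, adjusted p = 4.36e-06), and 0 higher, with a median of −0.39. The shares of all genes were 14.2% and 11%.

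**Figure D3:**
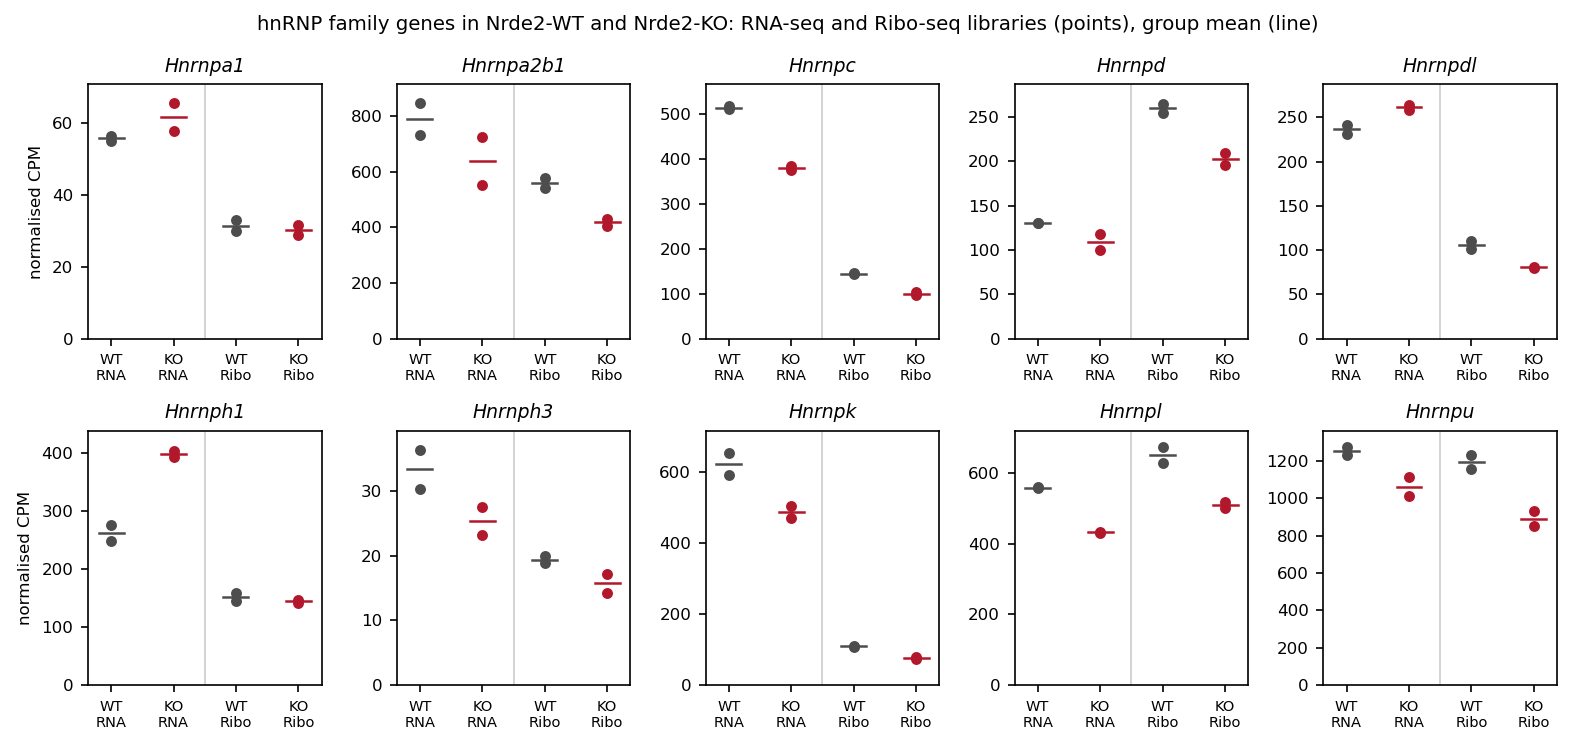
Normalised CPM (vertical axis, from 0) of each member in the 2 *Nrde2*-WT (grey) and 2 *Nrde2*-KO (red) libraries of RNA-seq and of Ribo-seq, scaled within each assay, with lines for the means. *Hnrnph1* is higher in both *Nrde2*-KO RNA-seq libraries, while its Ribo-seq libraries overlap.

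The Ribo-seq effect was tested against the RNA-seq effect of the first *Nrde2*-KO experiment. The labels tie the Ribo-seq libraries to neither RNA-seq experiment, so assay and experiment cannot be told apart here. Ribo-seq fell relative to RNA-seq for 2 of 10 members, against 2.21% of 12788 genes, and rose for 0, against 4.96%. For *Hnrnph1*, RNA-seq scaled beside the Ribo-seq gave 248 and 275 CPM in *Nrde2*-WT and 404 and 393 CPM in *Nrde2*-KO, while Ribo-seq gave 145 and 159 against 146 and 142 CPM. The RNA is high in both knockout libraries and the Ribo-seq groups overlap, and the difference of the effects was −0.69 ± 0.11, SE, adjusted p = 0.00108. For *Hnrnpdl*, RNA-seq gave 231 and 242 CPM in *Nrde2*-WT and 258 and 264 CPM in *Nrde2*-KO, and Ribo-seq 110.1 and 101 against 80.1 and 81.1 CPM. Here the knockout is above the control in RNA-seq and below it in Ribo-seq, with a difference of −0.53 ± 0.10, SE, adjusted p = 0.00323. The RNA-seq of the second experiment was not tested against the Ribo-seq. In it the effect on *Hnrnph1* was 0.45. *Hnrnpdl* overlapped there, at 380 and 386 CPM in *Nrde2*-WT and 379 and 419 CPM in *Nrde2*-KO, scaled over all RNA-seq libraries.

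The other 8 members were between −0.20 and 0.09, with a median over the 10 of −0.14 against 0.03 for all genes. For *Hnrnpc* the effect was −0.42 in RNA-seq and −0.52 in Ribo-seq, and for *Hnrnpl* −0.36 and −0.35, each in the fit of its own assay. The fit of the 8 libraries of both assays, with scaling of its own, gave a difference of −0.09 ± 0.10 for *Hnrnpc* and 0.02 ± 0.10 for *Hnrnpl*. With CPM as deposited neither *Hnrnph1* (−0.62) nor *Hnrnpdl* (−0.46) was called. The *Hnrnph1* call passed without each of the 8 libraries (adjusted p at most 0.00728), and that of *Hnrnpdl* was lost without 6 of them (at most 0.0166), all but replicate 2 of *Nrde2*-WT in RNA-seq and in Ribo-seq. Among the 19 other hnRNP genes 1 was called, *Pcbp2* (−0.71 ± 0.10, SE, adjusted p = 0.000697), and lost with CPM as deposited. Called higher among the markers were 1 of 8 for ES cells, *Tdgf1* (0.73), and 1 of 2 for fibroblasts, *Col1a1* (1.76), and their part was not tested.

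The 7 RNAs known to be degraded when translated were also followed between genotypes. *Snhg12* was called higher in *Nrde2*-KO (0.37, adjusted p = 0.00909) and *Atf4* in its second experiment (0.46, adjusted p = 0.00861). Both calls were lost without any 1 of the 4 libraries (0.33 to 0.41 and 0.37 to 0.55), with no filter and with CPM as deposited. In *Mtrex*-KO 1 was called higher, *Snhg1* (0.31, adjusted p = 0.00551), and 2 lower, *Snhg5* lowest (−1.58, adjusted p = 4.27e-09). The *Snhg1* call was lost without any 1 of the 4 libraries (0.28 to 0.33), with only the *Mtrex* libraries and with CPM as deposited (−0.07). In *Ccdc174-dTAG* 2 were called higher without CHX, *Atf4* highest (0.85, adjusted p = 0.000147), and 3 with CHX, *Snhg12* highest (0.76 (adjusted p = 0.00029); lost with no filter), and the CHX effect on *Atf4* differed between *Ccdc174-dTAG* and its control (−0.74, adjusted p = 0.00479). That call was lost without 7 of the 8 libraries (adjusted p at most 0.0379), with no filter and with only the groups compared. In the other comparisons of genotypes limma called 0 of the 7.

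How alike the members are was described over the 14 RNA-seq group means, which share control groups and experiments and are not independent. Of the 45 pairs of members 8 had a Pearson correlation above 0.5 and 11 one below 0, with a median of 0.30. It was highest between *Hnrnpk* and *Hnrnpu* (r = 0.80) and between *Hnrnpa2b1* and *Hnrnpk* (0.77), and lowest between *Hnrnpdl* and *Hnrnpl* (−0.33). Among 9004 genes at 10 CPM or more on average, the gene most alike over the same 14 means was *Usp37* for *Hnrnpa1* (r = 0.90), *Pgd* for *Hnrnpa2b1* (0.94), the pseudogene *Rps24-ps3* for *Hnrnpc* (0.91) and *Daxx* for *Hnrnpd* (0.87). It was *Ciao1* for *Hnrnpdl* (0.94), *Ciao2b* for *Hnrnph1* (0.89), *Rcbtb2* for *Hnrnph3* (0.95), *Atp5j* for *Hnrnpk* (0.97), *Shmt2* for *Hnrnpl* (0.95) and *Zfp664* for *Hnrnpu* (0.96). Each is the highest of all correlations of that member and is given as a description.

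*Hnrnpa2b1*, *Hnrnpk* and *Hnrnpu* were called lower with CHX in both control lines in the fit used, and their promoters are shown for that reason. RefSeq on GRCm38.p6 lists 15 promoters for the 10 members, each from 250 bases before to 50 bases after a transcript start. 3 motifs were searched on both strands, with overlapping matches counted: CCAAT, which reads ATTGG on the other strand, GGGCGG, which reads there as CCGCCC, and TATAAA, which reads there as TTTATA. The first, CCAAT, occurs in 9 of the 15 promoters (6 members) and in 37.4% of 32851 promoters of all genes, GGGCGG in 11 of 15 (7 members) and 35.7%, and TATAAA in 0 of 15 and 13.6%. *Hnrnpa2b1* has 2 of the 15, and the one that starts further upstream is shown. These 2 overlap, as do several of *Hnrnph1*, so the counts out of 15 include some sites more than once. The 3 promoters are chr6:51469845-51470144, chr13:58402068-58402367 and chr1:178337766-178338065, all on the minus strand and written 5′ to 3′ with matches in capitals. CCAAT occurs 1 time in the first and 2 times in the second, which hold no GGGCGG, and GGGCGG occurs 4 times in the third, which holds no CCAAT. A match is a description of the letters only.
Hnrnpa2b1: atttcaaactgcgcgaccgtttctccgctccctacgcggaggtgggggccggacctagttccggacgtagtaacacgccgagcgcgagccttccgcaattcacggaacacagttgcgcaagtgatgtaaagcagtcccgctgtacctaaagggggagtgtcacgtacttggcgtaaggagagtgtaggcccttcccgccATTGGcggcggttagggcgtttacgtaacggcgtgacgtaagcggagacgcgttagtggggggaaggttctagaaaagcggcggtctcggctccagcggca
Hnrnpk: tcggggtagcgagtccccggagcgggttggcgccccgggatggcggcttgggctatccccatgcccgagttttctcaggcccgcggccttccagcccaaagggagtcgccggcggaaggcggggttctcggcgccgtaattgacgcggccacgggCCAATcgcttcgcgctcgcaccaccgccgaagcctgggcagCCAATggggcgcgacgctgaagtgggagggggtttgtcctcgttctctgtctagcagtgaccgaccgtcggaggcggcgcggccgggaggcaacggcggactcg
Hnrnpu: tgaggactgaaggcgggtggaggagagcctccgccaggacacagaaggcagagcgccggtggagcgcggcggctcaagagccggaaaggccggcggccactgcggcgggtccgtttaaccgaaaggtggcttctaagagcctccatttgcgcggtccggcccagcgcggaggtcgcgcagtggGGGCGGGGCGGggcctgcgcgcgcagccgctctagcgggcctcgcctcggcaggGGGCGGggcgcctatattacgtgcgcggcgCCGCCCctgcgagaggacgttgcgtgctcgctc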

How the data were processed

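The authors aligned the RNA-seq reads to mm10 with STAR 2.7.3a, used featureCounts (Rsubread) to count correctly stranded, uniquely mapping reads in GENCODE M23 genes, and deposited them as CPM, counts scaled to a fixed library total. Ribo-seq reads were first trimmed and their duplicates collapsed. Whole reads were recovered, since 100% of values lay within 0.1 of one. GENCODE M21 names 55154 of the 55335 genes, 181 are not in it, and all per-sample columns were matched to a sample. The BCLIP-seq samples were not analysed here.

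limma 3.58.1 in R 4.3.3 (lmFit, eBayes with trend) was fitted to log2 of CPM divided by a median-of-ratios factor, plus 0.25, keeping genes that averaged 0.5 CPM or more. The fits held 20 RNA-seq libraries without cycloheximide (CHX; 14889 genes), 8 with CHX (15476), 16 of the CHX experiments (15133), 4 Ribo-seq libraries (13857), and 8 of both assays (12788). Genes were called at a Benjamini-Hochberg adjusted p below 0.01 over all genes of the fit, in either direction. Alternatives were 1 added before log2, no filter, CPM as deposited, only the groups compared, the replicate number as a block, each library left out, edgeR 4.0.16 (quasi-likelihood, TMM) and DESeq2 1.42.0 (at least 200, 80, 160 and 10 reads, and 40 RNA-seq with 10 Ribo-seq reads for both assays). edgeR and DESeq2 called 2733 and 3170 genes in *Nrde2*-KO, 8294 and 8914 in *Mtrex*-KO, and 3541 and 1911 in Ribo-seq. Python 3.11.15 with numpy 2.4.6, pandas 2.3.3 and matplotlib 3.10.9 made the tables and figures.

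The members and lists were chosen with earlier results of these data known. All 10 members and the targeted genes are named, and of each list the counts and the called genes with the highest and lowest fold change. The most alike gene has the highest Pearson correlation over the 14 RNA-seq group means of log2 normalised CPM, among genes outside the 10 that average 10 CPM or more. Promoters are from RefSeq on GRCm38.p6.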

Additional observations from a re-analysis of the deposited data

Results flagged for a closer look

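In *Nrde2*-KO the Ribo-seq effect minus the RNA-seq effect of the first experiment was −0.69 for *Hnrnph1* and −0.53 for *Hnrnpdl* (log2, limma). Both rest on 2 libraries per group and assay. Neither was called with CPM as deposited (adjusted p = 0.019 and 0.0653), and *Hnrnpdl* was also not called without 6 of the 8 libraries.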

How the results depend on the processing

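Of the 30 calls of members 6 passed under each other tool, filter and scaling, 12 without each single library, and 3 under all, and 0 changed sign. CPM as deposited ended 22, no filter 10 and only the groups compared 4, and the cause was not tested. Of 39 calls of other genes, 1 changed sign, *Snhg1* in *Mtrex*-KO, at −0.0685 with CPM as deposited against 0.31. Members called were 1 with no filter, 1 as deposited and 4 with only the groups compared in *Nrde2*-KO (2 in the fit used), 0 with no filter and 1 as deposited in the second experiment (2), 3 as deposited and 1 with only the groups compared in *Mtrex*-KO (5), and 1 by DESeq2 in *Ccdc174-dTAG* with CHX (0). They were 1 with no filter and 0 as deposited for CHX in *Nrde2*-WT (4), 1 as deposited for CHX in *Ccdc174*-WT (5), 4 with no filter and 0 as deposited in Ribo-seq (7), and 0 as deposited for Ribo-seq minus RNA-seq (2). Leaving out 1 library gave 0 to 2 for CHX in *Nrde2*-WT, 1 in *Nrde2*-KO, 0 to 2 in the second experiment, 0 to 3 in *Nrde2*-KO with CHX and 1 to 2 for Ribo-seq minus RNA-seq. Over all genes, the first minus second *Nrde2*-KO experiment gave 1 with the block and 3 by DESeq2 (0), *Nrde2*Δ*200* 623 with no filter and 2205 with only the groups compared (1098), and *Nrde2-D174R* 10 with no filter, 36 as deposited, 96 with the block, 249 by DESeq2 and 281 with only the groups compared (61). *Mtrex*-KO gave 5499 with only the groups compared (8335), *Ccdc174-dTAG* 547 with no filter, 539 as deposited and 474 with only the groups compared (829), *Nrde2*-KO with CHX 2536 with no filter (4361), and *Ccdc174-dTAG* with CHX 316 with no filter (1398). The CHX interaction gave 37 with no filter, 241 by DESeq2 and 16 with only the groups compared for *Nrde2*-KO (69), and 20, 123 and 0 for *Ccdc174-dTAG* (37). Ribo-seq gave 1749 with no filter and 1911 by DESeq2 (3491), and Ribo-seq minus RNA-seq 435 as deposited (917). Leaving out 1 library gave 1254 to 1514 genes in *Nrde2*-KO (2727), 1394 to 1923 in the second experiment (2755), 250 to 560 in *Nrde2*Δ*200*, 0 to 7 in *Nrde2-D174R*, 342 to 722 in *Ccdc174-dTAG*, 2189 to 3583 in *Nrde2*-KO with CHX and 430 to 710 in *Ccdc174-dTAG* with CHX. It gave 9 to 47 and 3 to 55 for the interactions with *Nrde2*-KO and *Ccdc174-dTAG*, and 414 to 629 for Ribo-seq minus RNA-seq. The percentage of called genes that were higher went with CPM as deposited from 39.4 to 55.6 in *Nrde2*-KO, 43.2 to 57.3 in *Nrde2*Δ*200*, 49.6 to 27.5 in *Mtrex*-KO (62.8 with no filter), 38.4 to 49.0 in *Nrde2*-KO with CHX, and 31.7 to 43.4 in *Ccdc174-dTAG* with CHX (14.6 with no filter). It went from 52.0 to 76.2 and 50.4 to 75.5 for CHX in *Nrde2*-WT and *Ccdc174*-WT, 43.7 to 69.1 in Ribo-seq, and 69.1 to 89.7 for Ribo-seq minus RNA-seq (54.7 by edgeR). In *Ccdc174-dTAG* that percentage went from 18.7 to 7.59 with only the groups compared and to 26.3 by DESeq2. Compared groups share replicate numbers that the labels do not tie to a batch or day, so the fit used has no block. Deviations of replicate 1 from the group means correlated between compared groups at −0.03 to 0.42, above 0.1 in 9 of 11 comparisons. With the block *Nrde2*-KO gave 2989 genes and 3 members, *Hnrnpl* added (adjusted p = 0.00975), *Nrde2*-KO with CHX 4015 genes (4361) and *Ccdc174-dTAG* with CHX 1147 (1398), where *Pcbp2* was not called (0.0108). No call of a member was lost with it.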
